A study of Mus musculus with 6 samples.

Results

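The 10 genes described here are receptors, ligands, nuclear factors and targets of the Notch pathway, listed by name (Notch1, Notch2, Notch4, Jag1, Dll4, Rbpj, Maml1, Hes1, Hey1 and Nrarp) and looked up by symbol among 27634 genes. They were chosen by function, with earlier results of these data known. Counts of 9 of them were found and all 9 passed the filter on low counts; Notch4 was not analysed here. The RNA came from cells labelled as cancer-associated dendritic cells of C57BL/6 mice. All mice carried tumours of ID8-Defb29/Vegf-a, a mouse ovarian cancer line that expresses beta-defensin 29 and VEGF-A, for 32 to 38 days. Over the same period all of them received 100 µg of siRNA in nanocomplexes with rhodamine-conjugated polyethylenimine, a polymer that phagocytic cells take up. The siRNA was non-targeting (NT) in the controls and directed at Satb1 in the other groups, so no group is untreated. The labels separate an experiment with strong downregulation of Satb1, with 2 libraries per siRNA, from one with weak downregulation, with 1 library per siRNA. The labels do not say whether the repeats come from separate mice or how many mice were pooled.

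Notch receptors are cut after they bind a ligand of the Jagged or Delta-like family on a neighbouring cell. The freed intracellular part enters the nucleus, joins the DNA-binding protein RBPJ and a Mastermind protein such as MAML1, and switches on genes such as Hes1, Hey1 and Nrarp. In myeloid cells the pathway is known for its part in the development of certain dendritic cells and in the response of macrophages to inflammatory signals. Satb1 encodes a chromatin organiser that binds AT-rich DNA. The comparison asks whether transcripts of this pathway differ when Satb1 is reduced.

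Total counts were 67774712 and 71272720 in the strong NT libraries, 51710612 and 49022011 in the strong Satb1 siRNA libraries, 27029554 in the weak NT library and 24553454 in the weak Satb1 siRNA library. The repeats of a strong group differed by little more than counting noise, with a chi-square per gene of 1.202 between the NT repeats and 1.37 between the others (counting alone gives about 1). The main fits below still use the 2 libraries of each strong group as repeats. Their standard errors (SE) and adjusted p-values therefore compare the sequenced libraries, not the conditions. Only the fits with the repeats added up count each strong group as 1 sample. Satb1 stood at 18.2 and 16.7 CPM (counts divided by the library total and multiplied by 1000000) with NT siRNA and at 3.56 and 4.08 CPM with Satb1 siRNA in the strong experiment, a log2 fold change of -2.25 (SE 0.072, edgeR adjusted p = 1.74e-39). In the weak experiment it stood at 6.29 CPM (170 counts) in the library labelled NT and at 6.72 CPM (165 counts) in the library labelled as Satb1 knockdown. The authors' FPKM values were 0.98 and 1.04. The log2 ratio was -0.26 with TMM scaling, for which no counting interval was computed. The direction of Satb1 thus turned with the scaling, and these values do not establish a knockdown in the weak experiment. Each direction given below for that experiment rests on the label. The 10 dendritic cell markers summed to between 74.5 and 77.9 CPM in the strong libraries and to 319 and 673 CPM in the weak NT and Satb1 siRNA libraries. The 10 macrophage markers summed to between 4406 and 4799 CPM in the strong libraries, and to 6375 and 5068 CPM in the weak ones. Itgax, which encodes CD11c, was taken here as a defining marker in the dendritic cell list. It was present at 22.2 and 22.1 CPM in the strong NT libraries but at 6.25 and 5.63 CPM in the strong Satb1 siRNA libraries. Other dendritic cell markers went the other way, such as Flt3 from 0.959 and 1.151 to 2.15 and 1.82 CPM. Of the 10 markers 6 were called higher and 4 lower in edgeR, where 32.8% of all genes tested were called higher and 33.2% lower. In every library the summed macrophage markers were thus far more abundant than the summed dendritic cell markers of the labelled cell type. The sums hold different genes, so they do not give the shares of the cell types. In bulk RNA, fewer cells of a type and less RNA per cell cannot be told apart.

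Promoter sequences of 7 of the 9 measured members were matched by symbol in a table from RefSeq on build GRCm38.p6, a build other than the mm9 named in the submitters' processing notes. Those of 3 genes are shown, because Notch1, Jag1 and Rbpj are the abundant members that were called lower in the strong experiment. Each is the 250 bases before the annotated start, 5′ to 3′ on the gene's strand. For Notch1 and Jag1 the capitals mark the longest unbroken run of A and T, since SATB1 binds AT-rich DNA. For Rbpj the capitals mark TGGGAA, the core of the RBPJ binding motif, or its reverse complement TTCCCA.

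Notch1, chr2:26503823-26504072, minus strand: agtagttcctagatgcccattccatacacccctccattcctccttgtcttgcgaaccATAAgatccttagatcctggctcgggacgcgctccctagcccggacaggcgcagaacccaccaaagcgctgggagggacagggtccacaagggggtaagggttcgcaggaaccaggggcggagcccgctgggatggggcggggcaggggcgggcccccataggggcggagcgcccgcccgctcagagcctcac
Jag1, chr2:137116521-137116770, minus strand: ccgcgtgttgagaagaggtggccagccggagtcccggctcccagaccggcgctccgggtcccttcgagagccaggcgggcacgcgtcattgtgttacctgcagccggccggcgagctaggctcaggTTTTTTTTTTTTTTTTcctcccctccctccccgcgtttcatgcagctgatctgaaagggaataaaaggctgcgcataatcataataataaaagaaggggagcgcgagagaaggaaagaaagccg
Rbpj, chr5:53590096-53590345, plus strand: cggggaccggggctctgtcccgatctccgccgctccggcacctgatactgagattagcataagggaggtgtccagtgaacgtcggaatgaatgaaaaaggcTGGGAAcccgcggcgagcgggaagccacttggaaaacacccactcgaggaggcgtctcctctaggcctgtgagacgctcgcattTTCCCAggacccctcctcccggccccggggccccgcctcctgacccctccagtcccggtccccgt

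The Jag1 window held a run of 16 T bases, and 5.25% of 32536 promoter windows of the same length held a run of A and T at least as long. The longest run in the Notch1 window was 4 bases, and 93.7% of windows had a run of this length or more. The Notch1 window was 34.0% A and T and the Jag1 window 42.8%, below the median of 47.6% over all windows. The Rbpj window shown held the RBPJ core 2 times, and the window of a second annotated Rbpj start (chr5:53590236-53590485), which overlaps it, held 1. On either strand, 2.78% of all windows held it 2 or more times and 21.6% at least 1 time. The windows of Notch1, Notch2, Jag1, Dll4, Maml1 and Nrarp held no copy. These matches describe letters in a window and were not tested for binding. The Notch1 and Jag1 windows thus differ in the length of their longest A and T run.

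Levels can be compared between genes in the authors' FPKM (fragments per kilobase of transcript, scaled to library size). Rbpj was the most abundant member, at 110.65 and 111 FPKM in the strong NT libraries. Next came Jag1 at 51.5 and 50.4 FPKM, Notch2 at 27.8 and 27.9 FPKM and Notch1 at 5.39 and 5.10 FPKM. Hes1, at 3.36 and 3.77 FPKM, and Maml1, at 3.43 and 3.40 FPKM, overlapped. Hey1 (0.30 and 0.29 FPKM), Nrarp (0.17 and 0.24 FPKM) and Dll4 (0.03 and 0.02 FPKM) stood lowest. Notch2 exceeded Notch1 by 5.15 and 5.46 times in these libraries, and by 2.96 times in the weak NT library. In the weak NT library Notch2 (31 FPKM) stood above Jag1 (18.0 FPKM), and Maml1 (9.56 FPKM) above Hes1 (0.78 FPKM). The order of ligand and receptor therefore differed between the control libraries of the experiments, while Rbpj led in both.

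**Figure D1:**
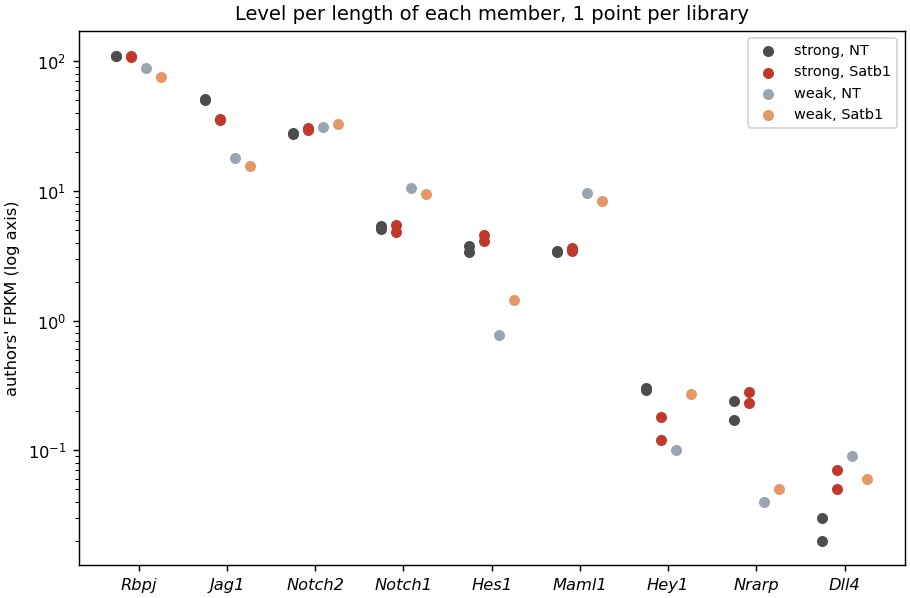
Level per length of the 9 measured members in the authors' FPKM (log axis), 1 point per library, ordered by the strong NT libraries. Rbpj is highest at 76.2 to 111 FPKM in all 6 libraries, while Hey1, Nrarp and Dll4 stay at or below 0.30 FPKM.

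Notch1, the receptor best known from lymphocyte development, fell in counts in the strong experiment. The NT libraries held 2787 and 2886 counts of it (41.1 and 40.5 CPM), and the libraries with Satb1 siRNA 1646 and 1500 (31.8 and 30.6 CPM). Both Satb1 siRNA libraries lay below both NT libraries. The log2 fold change was -0.44 (SE 0.033, edgeR adjusted p = 6.83e-20), a ratio of 0.737 after scaling by trimmed means (TMM). The authors' FPKM of the same gene did not follow: it was 5.39 and 5.10 with NT siRNA and 5.51 and 4.83 with Satb1 siRNA, and the groups overlapped. On log2(FPKM + 0.1), limma gave a log2 fold change of -0.023 (SE 0.072, adjusted p = 0.801), an alternative chosen after seeing the data. The call on Notch1 thus depends on which of the deposited measures is used.

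The gap between the measures corresponds to a change in the transcript length by which FPKM divides. Dividing the counts by FPKM and library total gave 7.63 and 7.94 kb for Notch1 in the strong NT libraries, 5.78 and 6.34 kb in the strong Satb1 siRNA libraries, and 9.29 and 8.66 kb in the weak NT and Satb1 siRNA libraries. The file lists 4 transcript IDs under Notch1 and gives no values for single transcripts. Jag1, with 1 transcript ID, stayed between 5.29 and 5.30 kb in the strong libraries and at 5.45 and 5.44 kb in the weak ones. For Notch1 the log2 ratio of mean CPM was -0.387 and that of mean FPKM -0.0208, a difference of -0.366. Among 7523 genes with 2 or more transcript IDs and a mean FPKM of at least 1, 1.60% differed by more, and the median absolute difference was 0.0238. An absolute difference of more than 0.3 was held by 2.37% of these 7523 genes and by 4.53% of 5124 genes with 1 transcript ID. Whether the transcripts of Notch1 changed in their shares was not tested. Rbpj, with 5 transcript IDs, and Maml1, with 2, differed between the measures by only -0.00262 and 0.00062.

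**Figure D2:**
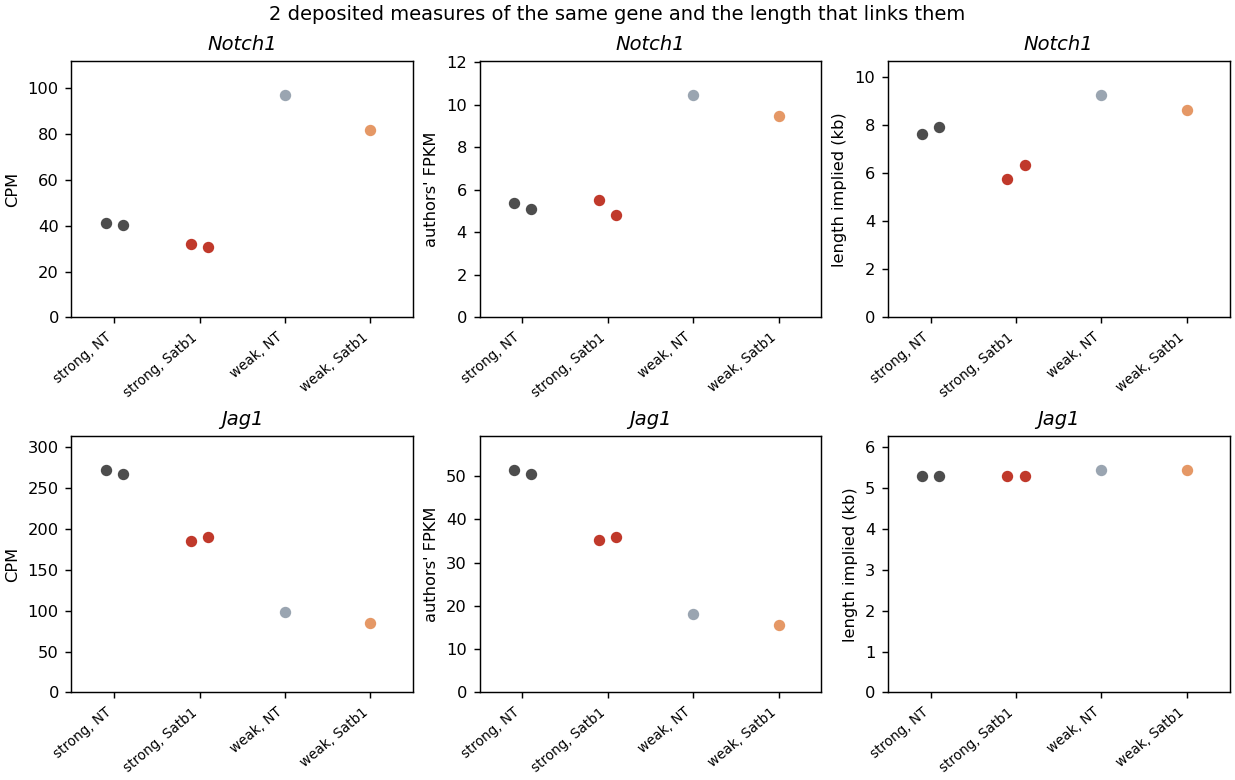
Notch1 and Jag1 in CPM, in the authors' FPKM and as the length in kb implied by both, 1 point per library. For Notch1 the strong Satb1 siRNA libraries are lower in CPM (31.8 and 30.6 against 41.1 and 40.5) but overlap the controls in FPKM, while Jag1 is lower in both measures and keeps its length.

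Notch2, the receptor needed by some splenic dendritic cells and B cells, did not pass the test in the strong experiment. It stood at 279.6 and 280 CPM with NT siRNA against 299 and 289 CPM with Satb1 siRNA. Both Satb1 siRNA libraries lay above the NT libraries before TMM scaling, and the groups overlapped after it, at 255 and 256 against 262 and 253 CPM scaled over 6 libraries. The log2 fold change was 0.018 (SE 0.012, edgeR adjusted p = 0.185). Scaling by library size alone gave 0.072 (edgeR adjusted p = 3.98e-07), and the FPKM values gave 0.11 (limma adjusted p = 5.35e-03). Without Satb1 siRNA replicate 2 Notch2 was also called (0.041, edgeR adjusted p = 0.0329). The call on Notch2 therefore rests on the scaling and on 1 library.

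Jag1, a Notch ligand, fell with the smallest adjusted p of the 9 members in the strong experiment. It stood at 272.5 and 266.6 CPM with NT siRNA and at 185.8 and 190.5 CPM with Satb1 siRNA. The groups were far apart relative to the repeats. The log2 fold change was -0.57 (SE 0.015, edgeR adjusted p = 2.53e-42), a ratio of 0.672, and the FPKM values gave -0.52 (limma adjusted p = 1.3e-05). Dll4, the Delta-like ligand of sprouting vessels, was close to the limit of detection, with 7 and 5 counts against 9 and 11 counts. Its log2 fold change was 1.13 (SE 0.51, edgeR adjusted p = 0.0461). Dll4 exceeded the filter of 0.167 CPM only in the 2 Satb1 siRNA libraries and so had to differ, and its call ended when any 1 of the 4 libraries was left out (edgeR adjusted p = 0.0879 to 0.298). Of the ligands, only the Jag1 difference is well above the counting error.

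Rbpj, which encodes the DNA-binding partner of all Notch receptors, was almost level in the strong experiment. It stood at 603 and 604 CPM with NT siRNA and at 592 and 600.2 CPM with Satb1 siRNA. Its log2 fold change of -0.073 (SE 0.0057) passed the test (edgeR adjusted p = 2.19e-18) at 29424 to 43076 counts per library, with a ratio of 0.951. In FPKM it was -0.016 (limma adjusted p = 0.322). Maml1, the co-activator, stood at 19.2 and 19.0 CPM against 19.3 and 20.3 CPM and did not pass (log2 fold change -0.0025, SE 0.044, edgeR adjusted p = 0.963). Rbpj and Maml1 thus differed far less between the groups than Jag1 or the Notch1 counts.

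The targets did not move in one direction. Hes1, a repressor induced by Notch in many tissues, stood at 5.45 and 5.88 CPM with NT siRNA and at 6.21 and 6.94 CPM with Satb1 siRNA (log2 fold change 0.16, SE 0.082, edgeR adjusted p = 0.0832). The groups did not overlap, but the call was made only with scaling by library size (0.21, edgeR adjusted p = 0.0193), in FPKM (0.27, limma adjusted p = 0.0308) and without Satb1 siRNA replicate 1 (0.24, edgeR adjusted p = 0.0292). Hey1, a related repressor known from blood vessels and the heart, fell from 44 and 40 counts to 24 and 13 counts, or from 0.649 and 0.561 to 0.464 and 0.265 CPM. Its log2 fold change was -0.77 (SE 0.29, edgeR adjusted p = 0.0156), a call that was lost in edgeR when NT replicate 1 (adjusted p = 0.0936) or Satb1 siRNA replicate 2 (adjusted p = 0.260) was left out, and also in DESeq2 (adjusted p = 0.167). Nrarp, a feedback inhibitor that binds the Notch intracellular part, had 30 and 45 counts against 37 and 29 counts, with overlapping groups (0.23, SE 0.25, edgeR adjusted p = 0.439). Beside the Hey1 fall, 6 of 9 tested endothelial markers passed as lower and 2 as higher (median log2 fold change -0.475), against 33.2% and 32.8% of all genes tested. Among them Cdh5 went from 1.96 and 2.19 to 1.28 and 1.24 CPM and Kdr from 2.80 and 2.83 to 1.90 and 2.33 CPM. The 10 endothelial markers together summed to 24.9 and 25.6 CPM against 26.01 and 26.4 CPM. The largest part of these sums was Esam, which rose from 7.88 and 8.11 to 11.99 and 12.22 CPM, so the sums do not follow most of the markers. The part of endothelial cells in the Hey1 and Dll4 values was not tested.

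**Figure D3:**
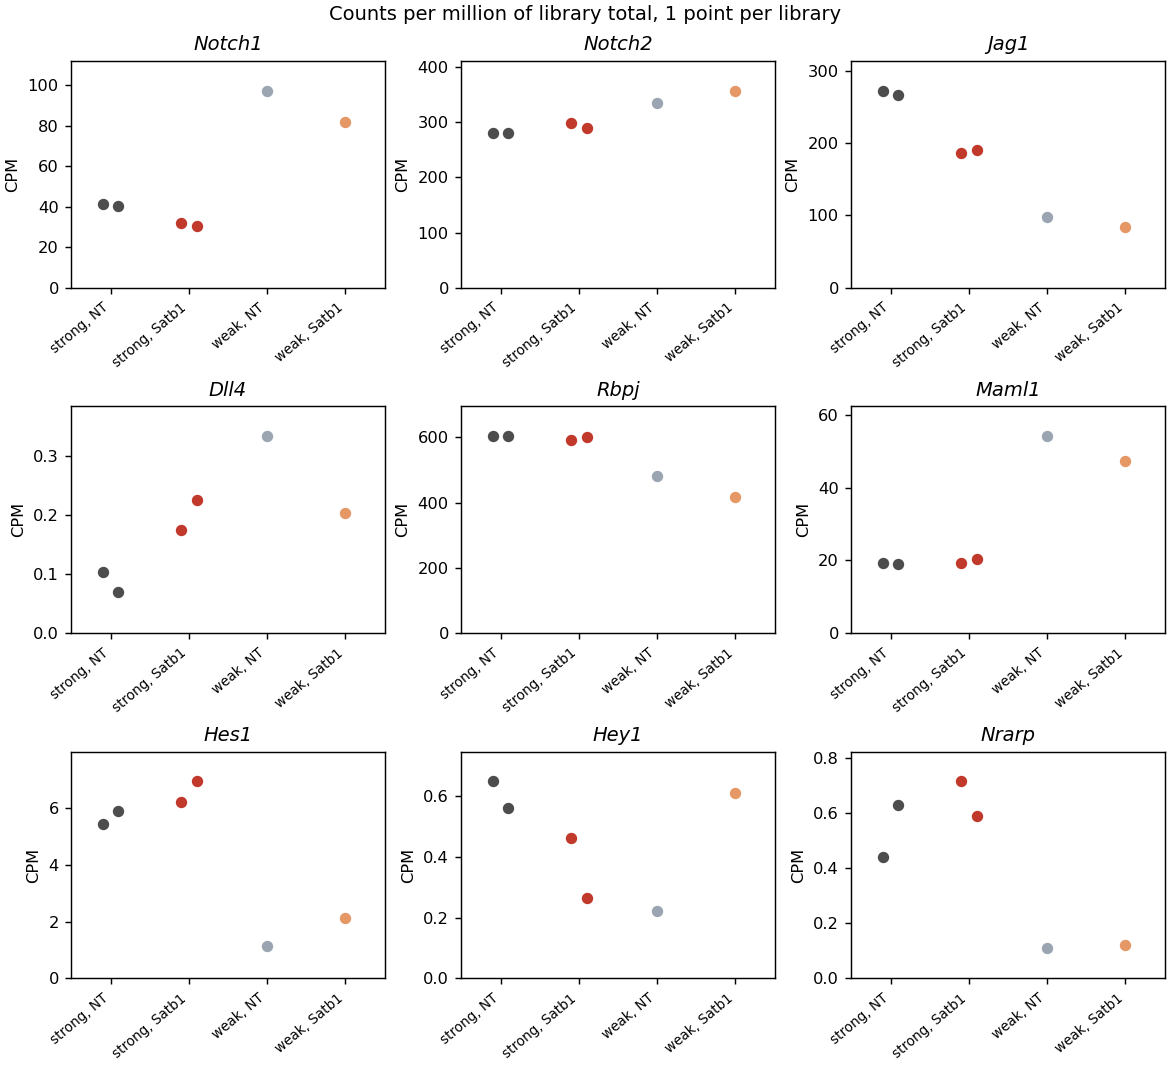
CPM (scaled by the library total, with no TMM scaling) of each of the 9 measured members, 1 point per library, with a separate axis from 0 for each gene. Notch1 and Jag1 are lower in the strong Satb1 siRNA libraries than in their controls, and the weak libraries stand apart from the strong ones for most genes.

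Of the 9 members, 4 were called lower (Notch1, Jag1, Rbpj and Hey1), 1 higher (Dll4) and 4 not in edgeR, and the median log2 fold change was -0.0025. Over all 20242 genes tested, 33.2% were called lower, 32.8% higher and 66.0% in either direction, with a median of 0.011. The share of members called, 55.6%, is near that background and is no result about the members. In the authors' FPKM limma called 2 members lower (Jag1 and Hey1) and 2 higher (Notch2 and Hes1), against 25.0% and 32.8% of 20468 genes and 57.7% in either direction. Beside these calls, the strong Satb1 siRNA libraries held more fibroblast marker transcript (299 and 297 against 232 and 228 CPM summed over 8 genes), more T cell marker transcript (32.9 and 31.4 against 22.4 and 22.7 CPM over 9 genes) and more nuclear RNA (34820 and 34980 against 28320 CPM in both NT libraries over 4 genes). The fibroblast sum was mostly Dcn (291 and 289 against 226 and 222 CPM), while Lum and Pdgfrb were lower in both Satb1 siRNA libraries. The part of these marker and nuclear transcripts in the members' values was not tested. With the repeats added up and a term for the experiment, so that each condition had 1 sample per experiment, edgeR called 0 of the 9 members and 0.0315% of 19068 genes. At an unadjusted p under 0.05 that fit held 2 members, Notch1 at a log2 fold change of -0.52 (edgeR adjusted p = 0.426) and Jag1 at -0.57 (edgeR adjusted p = 0.413). DESeq2 on the same sums also called 0 members, with the same 2 at an unadjusted p under 0.05 (adjusted p = 0.329 and 0.188), and 2.09% of 10541 genes (1.28% lower, 0.806% higher). Being called lower in the strong experiment and below 0 in the weak one held for 3 of 9 members (Notch1, Jag1 and Rbpj), as for 21.9% of 20154 genes.

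In the weak experiment, which has 1 library per siRNA and no test, the receptors, Jag1 and the nuclear factors were lower in the library labelled as Satb1 knockdown after TMM scaling over 6 libraries. Intervals are exact 95% binomial intervals for counting error only. Notch1 went from 2628 to 2006 counts (97.2 to 81.7 CPM), a TMM-scaled ratio of 0.657 (interval 0.620 to 0.696). For Jag1 the ratio was 0.671 (interval 0.634 to 0.711), from 98.2 to 84.4 CPM. Rbpj (483 to 416 CPM) had a ratio of 0.673 (interval 0.656 to 0.691) and Maml1 (54.2 to 47.3 CPM) one of 0.682 (interval 0.631 to 0.737). The ratio of Notch2 was 0.832 (interval 0.808 to 0.857), but its CPM went from 336 to 357, so that its direction turned with library size alone. Hes1, with 31 and 52 counts, had a ratio of 1.44 (interval 0.908 to 2.33), and Hey1, with 6 and 15 counts, one of 2.15 (interval 0.789 to 6.77). Dll4 had 9 and 5 counts (ratio 0.478, interval 0.126 to 1.59), and Nrarp had 3 counts in each library, which is the limit that a count of 0 allows, so no fold is given. By the log2 ratio 7 of 9 members were lower, Nrarp among them through scaling alone, against 46.5% of 20971 genes; with library size alone it was 5 of 9.

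The scaling matters here, since library size alone moved the median log2 ratio of all genes from 0 to 0.23. Relative to that median the log2 ratio of Notch1 was -0.606 with TMM and -0.482 with library size alone, that of Jag1 -0.575 and -0.451, and that of Notch2 -0.265 and -0.142. These members lay below the median of all genes under both scalings. A change of scaling moves the genes largely together, so this place could hardly turn and is no check on the scaling. In the weak Satb1 siRNA library the dendritic cell markers summed to 2.11 times the NT value, mesothelial and tumour epithelial markers to 4.55 times (135 to 614 CPM), fibroblast markers to 2.65 times (38.5 to 102 CPM), macrophage markers to 0.795 times and neutrophil markers to 0.602 times (394 to 237 CPM). The fibroblast sums were mostly Dcn (28.9 to 80.9 CPM). Nuclear RNAs (Malat1, Neat1, Kcnq1ot1 and Miat) summed to 1.60 times. Their part in the ratios of the members was not tested.

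The ratios in the strong and weak experiments were compared by an interaction in edgeR over all 6 libraries. Its spread comes only from the near-identical repeats of the strong experiment, so it compares libraries and does not show that the effects differ between conditions. For Jag1 the log2 difference (strong minus weak) was -0.0029 (edgeR adjusted p = 1), but with library size alone it was -0.30 and was called (edgeR adjusted p = 1.75e-05), at a median of all genes of -0.302. For Rbpj the difference was 0.49 (SE 0.026, edgeR adjusted p = 1.96e-32), and for Maml1 0.54 (SE 0.072, edgeR adjusted p = 1.4e-10), since both were near level in the strong experiment and lower in the weak one. Notch2 differed by 0.28 (SE 0.034, edgeR adjusted p = 7.05e-12) and Notch1 by 0.16 (SE 0.056, edgeR adjusted p = 0.0140). Hey1 differed by -1.87 (SE 0.72, edgeR adjusted p = 0.0281). In all, 5 of 9 members passed this test, against 39.7% of 20971 genes tested. The differences of Notch1 and Notch2 became -0.13 and -0.018 with library size alone, where the median of all genes was -0.302. A change of scaling moves the genes largely together, so a place above that median could hardly turn and is no check.

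**Figure D4:**
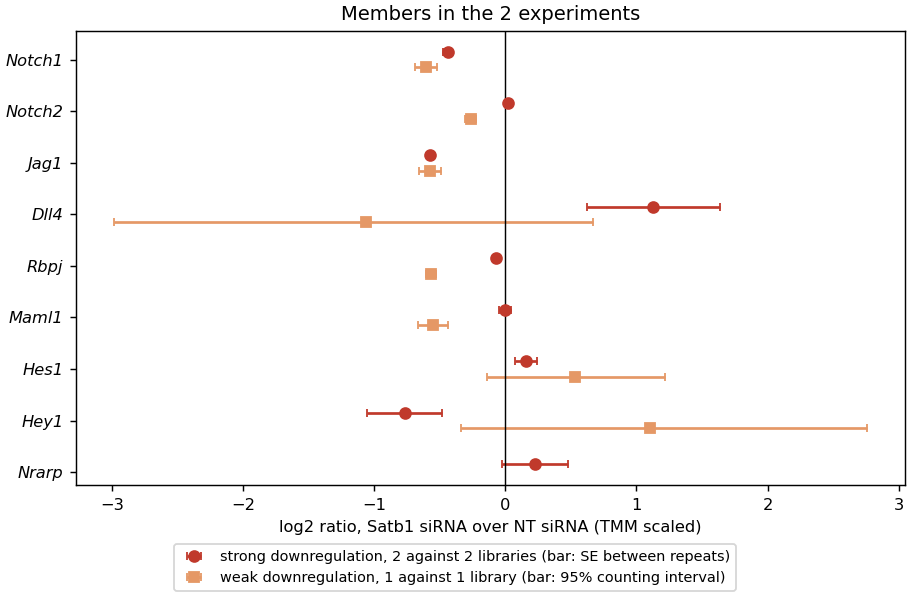
Log2 ratio of Satb1 siRNA over NT siRNA for each member, TMM scaled. Circles show the strong experiment with the SE between repeats and squares the weak experiment with the 95% counting interval; Nrarp has no square because both weak libraries hold 3 counts. Notch1 and Jag1 lie well below 0 in both, and Rbpj and Maml1 lie near 0 in the strong experiment and at -0.57 and -0.55 in the weak one.

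Control levels of several members differed between the experiments, beyond counting error but with no test, as the weak experiment has 1 NT library. Against the strong NT libraries, the weak NT library held more Maml1 (54.2 against 19.2 and 19.0 CPM, TMM-scaled ratio 4.39, interval 4.12 to 4.68) and more Notch1 (97.2 against 41.1 and 40.5 CPM, ratio 3.69, interval 3.52 to 3.86). It held less Jag1 (98.2 against 272.5 and 266.6 CPM, ratio 0.564, interval 0.542 to 0.587) and less Hes1 (1.147 against 5.45 and 5.88 CPM, ratio 0.313, interval 0.211 to 0.448). Nrarp had 3 counts in the weak NT library (ratio 0.319, interval 0.0642 to 0.967). By the log2 ratio 5 of 9 members differed at least 2-fold, against 57.8% of 20971 genes: 3 were higher (Notch1, Dll4 and Maml1), against 19.7%, and 2 lower (Hes1 and Nrarp), against 38.2%. With library size alone it was 7 of 9, as Jag1 (-1.46 on the log2 scale) and Hey1 (-1.29) were then also more than 2-fold lower. The Notch1 ratio was 2.38 in CPM without scaling and 2.00 in FPKM. TMM left the median log2 ratio of all genes at -0.44 and library size alone at -0.997. The Rbpj ratio was 1.24 with TMM but 0.800 in CPM, so its direction turned with the scaling. The experiments also differed in RNA makeup: the 4 nuclear RNAs summed to 28320 CPM in both strong NT libraries and to 1368 CPM in the weak NT library. The part of RNA makeup in these levels was not tested.

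Among 53 other genes of the pathway found in the file, 50 were tested in the strong experiment, with 23 called lower, 13 higher and 14 not in edgeR (72.0%, against 66.0% of all genes) and a median log2 fold change of -0.0473. The balance of directions depends on the measure, as 19 were called lower and 18 higher with library size alone, and 15 lower and 16 higher in FPKM with limma. All genes shifted too, from 6722 lower and 6645 higher with TMM to 5682 and 7690 with library size alone. In FPKM limma called 5111 lower and 6707 higher of all 20468 genes. The list was fixed with earlier results of these data known, and 5 further entries (Aph1b, Rfng, Mib1, Mib2 and Kdm5a) were not analysed here. Of 8 genes of the proteases that release the ligand-bound receptor, 5 were called lower and 0 higher in edgeR (62.5% called, median -0.141), against 33.2% lower, 32.8% higher and 66.0% in all among genes tested. The counts were the same with RLE scaling, and 0 were higher at an unadjusted p under 0.05. With library size alone 5 were called lower and 1 higher, Adam10. Psen2, a catalytic subunit of gamma-secretase, fell by 0.56 (53.0 and 54.7 against 38.3 and 37.4 CPM). Psenen, another subunit, fell by 0.46 (35.8 and 35.5 against 26.6 and 27.2 CPM). In the weak experiment all 8 had a log2 ratio below 0 with TMM (median -0.367), against 46.5% of 20971 genes. With library size alone it was 5 of 8 (median -0.0121, or -0.244 relative to the median of all genes, which was 0.23). Adam10, which makes the first cut, stood at 283.7 and 282.9 against 297.1 and 297.9 CPM and did not pass with TMM (0.016, edgeR adjusted p = 0.227), but was called higher with library size alone (0.071, edgeR adjusted p = 2.05e-07) and in FPKM (0.073, limma adjusted p = 5.41e-03).

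Calls among regulators of trafficking and of the nuclear complex went both ways. The roles hold 4 to 10 tested genes each, to be read against the 66.0% of all genes that were called, and no role was tested against other genes. With library size alone, 5682 of all 20242 genes were called lower and 7690 higher. Of 10 ubiquitin ligase and endocytic genes 6 were called lower and 4 higher; Numbl, a homologue of the Notch inhibitor Numb, fell by 1.02 (6.20 and 5.78 against 3.17 and 2.96 CPM), and the ligase gene Itch rose by 0.095. Of 7 co-activators 2 were called lower, 2 higher and 3 not, but 1 lower and 4 higher with library size alone. Snw1, a partner of RBPJ, fell by 0.21, and Maml2, a relative of Maml1, rose by 0.52 (11.7 and 11.1 against 16.6 and 17.4 CPM). Of 8 co-repressors 2 were called lower, 4 higher and 2 not, and 2 lower and 6 higher with library size alone. Ncor1 rose by 0.19, and the deacetylase gene Hdac1 fell by 0.38 (67.1 and 68.4 against 54.0 and 54.1 CPM). Of 4 glycosyltransferases, which modify the receptors, 2 were called lower, 1 higher and 1 not; Lfng fell by 0.15 and Mfng by 0.24. Of 5 other receptors and ligands 1 was called, Jag2 (log2 fold change -0.41, edgeR adjusted p = 0.0405), at 1.67 and 1.40 against 1.47 and 0.918 CPM, where the groups overlapped, and not with library size alone. Dlk1 did not pass (0.68, edgeR adjusted p = 0.0733). Of 8 other targets tested 5 were called lower and 2 higher (Il2ra and Ptcra, both known from T cells and named after their values were seen), beside the rise in T cell marker transcript given above; Ccnd1, the gene of cyclin D1, fell by 0.18 and Hes6 by 0.51 (9.07 and 9.25 against 6.52 and 6.85 CPM), while Hes3, Hes5 and Hes7 were too low to test.

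**Figure D5:**
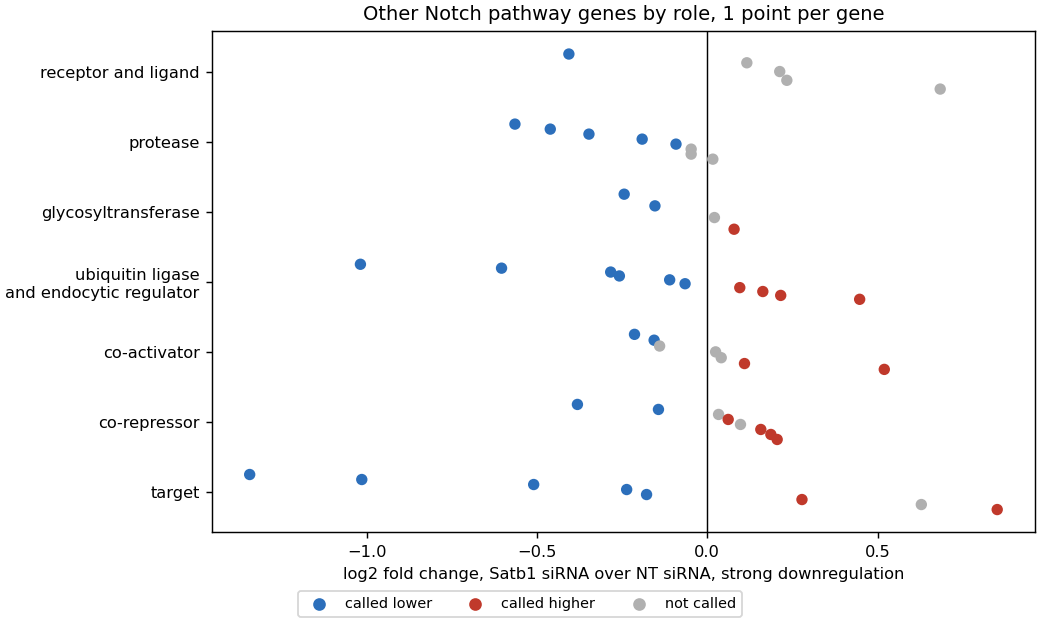
Log2 fold change in the strong experiment of the 50 other Notch pathway genes tested, by role, 1 point per gene, coloured by the call in edgeR. With TMM scaling no protease gene is called higher (Adam10 is with library size alone), and most roles hold calls in both directions; the roles were not tested against each other.

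In its pattern over the 6 libraries, Notch1 was most like Ppp6r1, a regulatory subunit gene of protein phosphatase 6, out of 12318 genes whose log2 CPM averaged at least 1. The measure was the Euclidean distance between centred log2 CPM values, and it was 0.0405 for Ppp6r1, 0.0916 for Sh3tc1 and 0.106 for the ribosomal protein gene Rpl18. Ppp6r1 stood at 98.4 and 96.9 CPM in the strong NT libraries, 77.3 and 74.6 CPM in the strong Satb1 siRNA libraries, and 239 and 194 CPM in the weak ones. Of the other members, Maml1 was nearest to Notch1, at a distance of 0.455, with 462 genes closer. Jag1 was far from it, at 3.04 with 9272 genes closer, since its level differed between the experiments in the opposite direction. The 6 libraries are not 6 independent samples, so these distances are a description.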

How the data were processed

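RNA was isolated with Trizol and sequenced from TruSeq Stranded Total RNA libraries, per the labels' protocols. The authors deposited FPKM and counts per gene, per the file headers. The deposited counts were treated as estimated counts, since RSEM 1.2.12 is named with DESeq2 and build mm9 in the submitters' processing notes; all were whole numbers. FPKM is relative to transcript length and library size, and estimated counts divide reads shared by similar transcripts. For aligner and strand handling the sources used here give nothing.

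Counts of the 4 strong libraries were fitted with edgeR 4.0.16 in R 4.3.3 (robust quasi-likelihood F-tests, TMM, filterByExpr, two-sided, Benjamini-Hochberg over all genes, threshold 0.05). SE is the log2 fold change divided by the square root of F. Weak and control ratios use TMM over 6 libraries; log2 ratios add a prior count of 2. DESeq2 1.42.0 and limma 3.58.1 (log2(FPKM + 0.1), mean FPKM of at least 0.1) served as alternatives. The fits were tested on simulated counts in which few genes changed and strong and weak libraries otherwise shared the same mean levels. The simulation therefore does not check the fits where most genes are called or where the experiments differ in RNA makeup. A count of 0 allows up to 3 counts, 0.0421 to 0.122 CPM. The labels do not say whether replicate numbers pair the libraries. Deviations of the replicates numbered 1 had a correlation of -0.0411, which cannot exclude pairing where repeats differ by little more than counting noise.

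Members and lists were chosen with earlier results of these data known. Named genes are Satb1, the members, the 2 pathway genes per role with the smallest p, the 3 genes nearest to Notch1 and defining markers. Adam10, Il2ra, Ptcra, Dcn, Lum, Pdgfrb, Esam, Cd3g, Lck, the nuclear RNAs and the untested Hes genes were added after their values were seen. Marker lists covered dendritic cells, macrophages, neutrophils, T cells, B cells, endothelial cells, fibroblasts, mesothelial and tumour epithelial cells and nuclear RNAs.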

Additional observations from a re-analysis of the deposited data

Results flagged for a closer look

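For 5 members the siRNA ratios of the strong and weak libraries differed by the edgeR interaction: Notch1 by 0.16, Notch2 by 0.28, Rbpj by 0.49, Maml1 by 0.54 and Hey1 by -1.87 on the log2 scale, strong minus weak. The weak experiment has 1 library per siRNA, and the spread is that between near-identical repeats, so the test compares these libraries and does not show that the effects differ between conditions. In DESeq2 the call was made for Notch2, Rbpj and Maml1, while Hey1, Dll4 and Nrarp were given no adjusted p. In edgeR, leaving out Satb1 siRNA replicate 1 ended the Notch1 call (adjusted p = 0.0722), and leaving out replicate 2 ended that of Hey1 (adjusted p = 0.0892).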

How the results depend on the processing

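In the strong experiment the falls of Notch1 and Jag1 kept their direction under all alternatives run. Jag1 lost its call only with summed repeats, and Notch1 with summed repeats and in FPKM, an alternative chosen after seeing the data. The fit with summed repeats takes in both experiments and gives a shared siRNA effect, not that of the strong experiment alone. With repeats summed, edgeR called 6 genes and DESeq2 220 in place of 13367, with 0 members and 0 other pathway genes in either direction; at an unadjusted p under 0.05 edgeR held 0 higher and 2 lower members and 0 higher and 6 lower other genes, and DESeq2 0 and 2 members and 1 and 2 other genes. In FPKM limma called 2 members lower, 2 higher, and 15 other genes lower and 16 higher. The count of members called higher (1) was 3 with library size alone, and 0 without a filter, in DESeq2, with 4 group means over 6 libraries and with the replicate block. At an unadjusted p under 0.05 it was 1, 0, 1 and 1 in these last 4. With library size alone, 7690 of all 20242 genes were called higher, against 6645 with TMM. The labels do not say whether replicate numbers pair the libraries. The replicate block, which called 13248 genes, ended no other member's call than that of Dll4 (edgeR adjusted p = 0.0751). Leaving out a library gave 0 to 1 members higher, 3 to 4 lower and 11942 to 12092 genes in all, where the lone library is assumed to vary like the other group. The interaction held 5 members in edgeR and 3 in DESeq2.

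Directions turned as follows, on the log2 scale. Maml1 was 0.052 with library size alone, 0.050 in FPKM and -0.040 to 0.037 with a library left out. Notch2 was -0.12 and -0.13 with repeats summed in edgeR and DESeq2 and -0.0055 to 0.041 with a library left out. Hey1 was 0.033 and 0.11 with repeats summed in edgeR and DESeq2, and Nrarp -0.0086 to 0.50 with a library left out. The summed fits take in the weak experiment, where the log2 ratio was -0.27 for Notch2 and 1.02 for Hey1. Their values for these genes are therefore not those of the strong experiment alone. In the weak experiment library size alone gave 0.090 for Notch2 and 0.10 for Nrarp, and for the control level of Rbpj -0.32. The difference of effects was -0.13 for Notch1 and -0.018 for Notch2 with library size alone. For Jag1 it was 0.092 with RLE scaling, 0.091 in DESeq2 and -0.022 to 0.018 with a library left out. Library size alone moves all genes by a shared amount; the cause of the other turns was not tested. Counts below about 50 limit Dll4, Hey1 and Nrarp.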

Other observations

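Cell type markers not described above moved as follows in the strong experiment, with calls in edgeR. Of 9 tested T cell markers 5 were called higher and 0 lower, with a median log2 fold change of 0.568. Cd3e, a defining marker, had 6 and 17 counts with NT siRNA and 11 and 16 with Satb1 siRNA (0.0885 to 0.326 CPM). Its groups overlapped at these low counts. Cd3g went from 0.3984 and 0.3788 to 1.16 and 0.8772 CPM, and Lck from 0.6787 and 0.477 to 1.102 and 1.081 CPM. Of 7 tested B cell markers 4 were called higher (median 0.48). Of 7 tested fibroblast markers 5 were called higher (median 0.406), and of 9 mesothelial and tumour epithelial markers 7 were called higher (median 0.102). Of 6 neutrophil markers 3 were called higher and 1 lower (median 0.321), of 10 macrophage markers 6 higher and 3 lower (median 0.0624), of 10 dendritic cell markers 6 higher and 4 lower (median 0.289), and of 4 nuclear RNAs 3 higher (median 0.37). These lists were chosen with earlier results of these data known, and 66.0% of all genes tested were called.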
